A study of Mus musculus with 34 samples.

Results

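The blood response to lipopolysaccharide (LPS), the endotoxin that Gram-negative bacteria carry on their surface, was read from messenger RNA of 4 LPS mice (numbers 2, 6, 7 and 8) set against 9 mice given phosphate-buffered saline (PBS, numbers 1 to 9). These 13 libraries were chosen by their treatment label, out of 30 with counts and 34 labelled. Each library is 1 mouse, all mice are labelled wild-type and all samples blood, and neither group received ALY688, the adiponectin receptor agonist that the series is about. Not analysed here were LPS mice 3, 4 and 5 and PBS mouse 10. The labels give no strain, sex, age, route of LPS or time of sampling, and of the dose only that it was sublethal. The series text describes one experiment on plasma without LPS and another on whole blood with it, and does not say in which one the PBS mice belong. Treatment and experiment therefore cannot be told apart in any difference given here.

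LPS is carried by LPS-binding protein to Cd14 on phagocytes and sensed by Tlr4 with its partner Ly96. The adaptors Myd88 and Ticam1 then lead to NF-kB, which turns on inflammatory cytokines and their own inhibitors, and to interferon regulatory factors, which turn on the type I interferon program. In an animal with endotoxin in the circulation, neutrophils are known to leave the bone marrow for the blood, lymphocytes to leave the blood, and acute phase proteins to be made.

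The LPS libraries held 10914821 to 17338214 counts and the PBS libraries 9554964 to 11289689. Globin transcripts, the haemoglobin message of young red cells, took 30.4% ± 10.4 (SD, n = 4) of the counts with LPS and 56.3% ± 6.22 (n = 9) with PBS. The difference of −25.9 percentage points gave p = 0.0014 in a two-sided exact permutation test, the smallest that 715 assignments of the mice can give. In PBS mice 5, 6 and 9 fewer than 16000 genes were detected, against 16263 to 18246 in the other PBS libraries and 16532 to 19746 with LPS, and the scaling factors from TMM (trimmed mean of M values, a scaling by the bulk of genes) ran from 0.38 to 1.58 with PBS and from 1.00 to 2.75 with LPS. Levels below are CPM, counts scaled by library total and TMM factor, and 3 counts, taken as the floor of detection, stood at 0.063 to 0.274 CPM with LPS and 0.18 to 0.827 with PBS. On the first principal component, which held 45.8% of the variance, the LPS libraries lay at 66.7 to 95.9 and the PBS libraries lay at −68.8 to −9.86. Of markers of other tissues, 0 of 7 liver transcripts, 5 of 7 endothelial transcripts (3 called lower, all of which platelets also carry) and 2 of 10 muscle, adipocyte and skin transcripts (Col3a1 and Fabp4, neither called) had enough counts to be tested.

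The comparison reached far into the transcriptome. Of 12353 genes tested, 2577 (20.9%) were higher with LPS and 2208 (17.9%) lower at an adjusted p below 0.05, and 7568 were not called. The genes higher with LPS had a median log2 fold change of 1.15 (middle 50% from 0.77 to 1.89), and those lower a median of 1.49 in size (0.99 to 2.05). Small differences were part of both directions, since 1057 of the higher genes (41.0%) and 558 of the lower (25.3%) differed by less than 2-fold. The far tail was one-sided, with 45 genes higher by more than 5 on the log2 scale and 1 gene, Cd209a, lower by as much. A test against a 2-fold change, stricter than the test against no change, was passed by 1226 genes (9.92%), 774 higher and 452 lower. In 1647 genes (13.3%) every LPS mouse lay above every PBS mouse, and in 714 (5.78%) every LPS mouse lay below; 1627 and 706 of them were called.

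**Figure D1:**
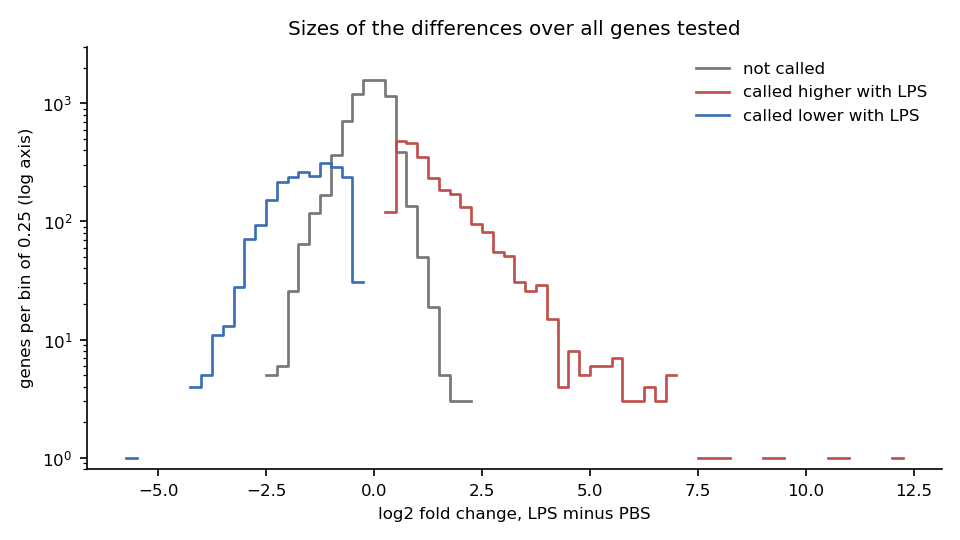
Histogram of log2 fold changes (LPS minus PBS, bins of 0.25 on the horizontal axis) against the number of genes on a log axis, for 2577 genes called higher, 2208 called lower and 7568 not called. The called genes start at small differences on both sides, and the tail beyond 5 holds 45 genes on the higher side and 1 on the lower.

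These counts hang on the scaling. With library totals in place of TMM, the all-gene median shifted by 1.08 on the log2 scale and 5600 genes were called higher and 296 lower, so every direction given here is relative to the bulk of tested genes. All 2577 higher genes were also called higher on library totals, whereas 292 of the 2208 lower genes were called lower there. The share of genes called higher depended on level, from 8.82% in the lowest of 10 bins of genes by level (0.37 to 1.18 CPM on average) to 33.4% in bin 9 (31.0 to 63.0 CPM), while the median half-width of the 95% interval fell from 1.09 to 0.44. For genes called lower the shares were 19.3% and 16.0% in these bins and highest, at 25.2%, in bin 10, the most abundant genes, where 25.8% were higher. Among genes not called, 4456 had an interval within 2-fold of no change and 1305 within 1.5-fold, and for the other genes not called the interval did not exclude a 2-fold difference.

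Gene lists for pathways and cell types are described below by how many members were called, beside the 20.9% and 17.9% of all tested genes, and by the median log2 fold change of the members, beside a median of −0.04 over all genes. The largest shares of members higher with LPS were those of secondary granule genes, neutrophil markers, DNA replication and mitosis genes, cytokine receptors and decoys, type I interferon-stimulated genes, and myeloid lectins. Lists with most members lower were MHC class II, mitochondrially encoded transcripts, T and B cell markers, the GIMAP family and platelet markers.

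**Figure D2:**
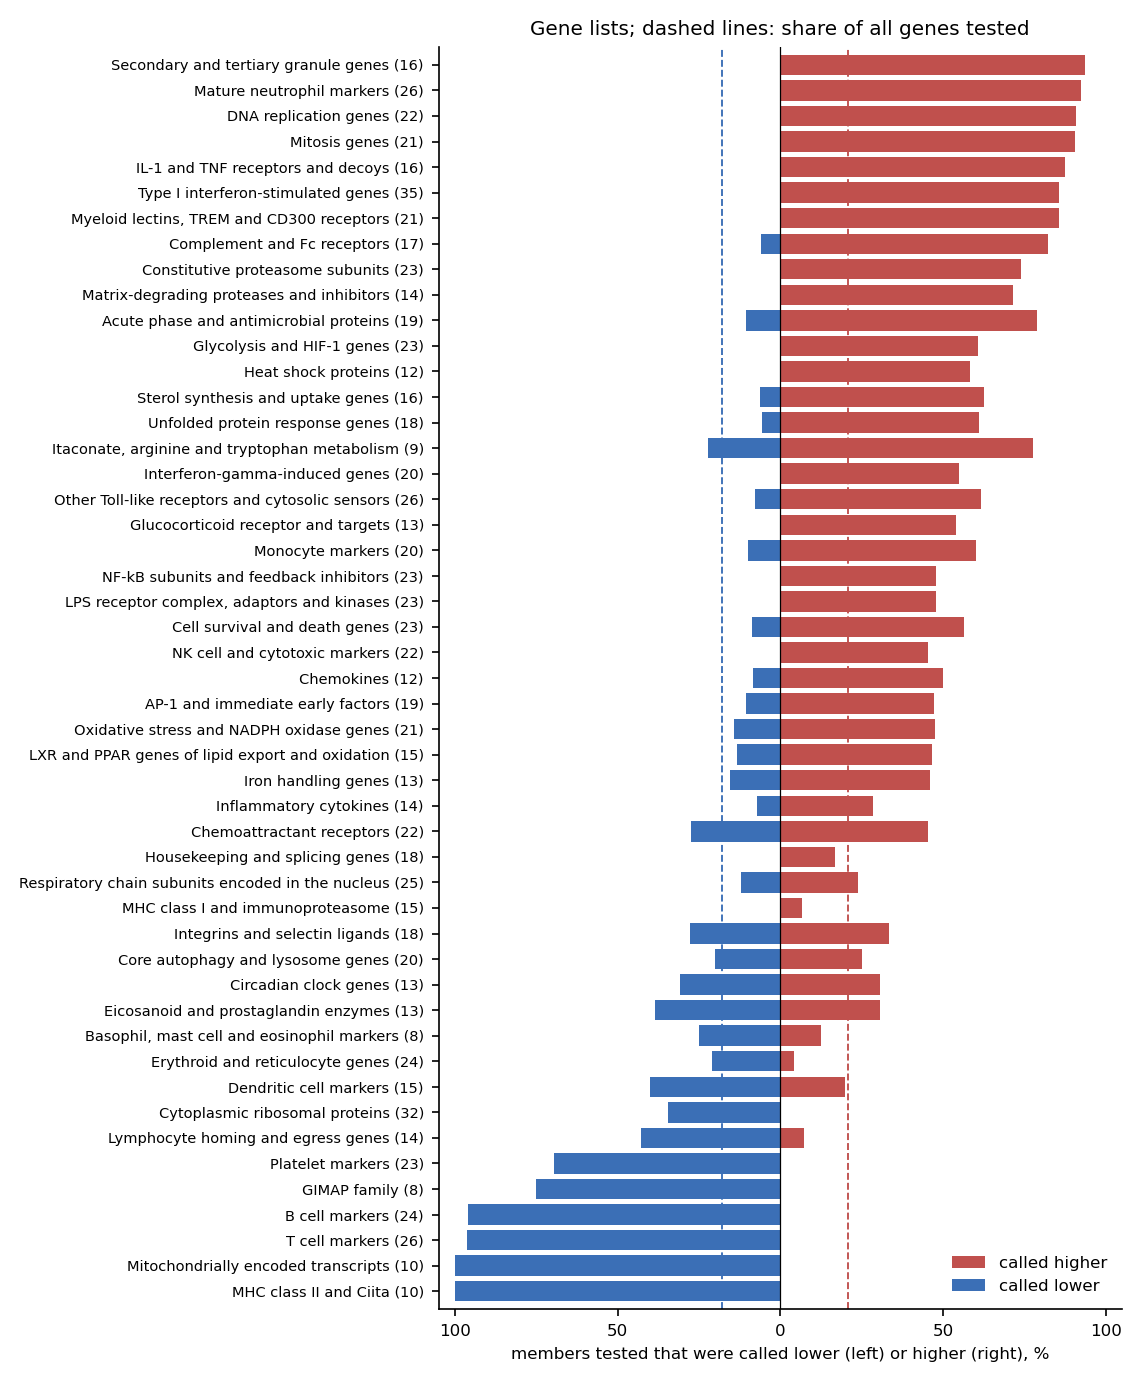
Share of tested members of each gene list (number tested in brackets) called higher with LPS (bars to the right) or lower (bars to the left), in percent, with dashed lines at the 20.9% and 17.9% of all genes tested. Lists with 8 or more tested members are drawn in order of the difference of both shares, from secondary and tertiary granule genes at the top down to lists with every member lower, as MHC class II genes (10 of 10), at the foot.

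Of 23 genes of the LPS receptor and its first signalling steps, 11 were higher with LPS and 0 lower (median 0.49): the binding proteins and receptor, adaptors and some of the kinases. Cd14, the co-receptor that hands LPS to Tlr4, lay at 94.5, 56.5, 139.7 and 117 CPM in LPS mice 2, 6, 7 and 8 and at 1.298 to 10.9 (median 2.04) in the 9 PBS mice, a 27.7-fold difference (log2 4.79 ± 0.46, adjusted p = 2.09e-06). Every LPS mouse was above every PBS mouse, the highest of which, mouse 7, stood apart from the others at 5.79 CPM or less. Tlr4 lay at 18.3, 14.7, 32.9 and 24.9 CPM against 3.00 to 9.78 (median 4.69) with PBS (log2 2.11 ± 0.25, adjusted p = 8.99e-06). Its partner Ly96 was scarce, at 1.92, 2.18, 2.10 and 2.32 CPM against 0 to 2.04 (median 0.511), and the groups overlapped (log2 1.44 ± 0.45, adjusted p = 0.0198, or 1.41 with an adjusted p of 0.0536 without LPS mouse 8).

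Further members with higher levels were Lbp, the LPS-binding protein (4.18 ± 0.43), the adaptors Tirap (1.90 ± 0.27) and Myd88 (1.88 ± 0.20), and the kinases Irak4 (1.18 ± 0.17) and Tbk1 (0.43 ± 0.16). Irak3, an inactive kinase that restrains the pathway, lay at 74.4, 46.2, 136 and 128 CPM against 10.5 to 25.9 (median 13.4) (log2 2.68 ± 0.27, adjusted p = 2.42e-06). Ikbke, a kinase that activates interferon regulatory factors, lay at 124, 93.0, 203 and 210.4 CPM against 14.3 to 34.2 (median 21.4) (log2 2.79 ± 0.26, adjusted p = 9.82e-07). Other steps of the cascade did not pass: Traf6 (0.25), Ikbkb (−0.42) and Irak1 (−0.23) all had adjusted p above 0.05. Among other Toll-like receptors and cytosolic sensors, 16 of 26 were higher and 2 lower (median 0.86). Tlr2, the receptor of bacterial lipopeptides, lay at 44.8, 31.5, 60.3 and 55.0 CPM against 4.54 to 16.4 (median 9.73) (log2 2.29 ± 0.24, adjusted p = 3.01e-06). Nod1, a sensor of peptidoglycan fragments, lay at 88.6, 97.3, 95 and 121 CPM against 24.7 to 39.0 (median 35.8) (log2 1.57 ± 0.16, adjusted p = 2.59e-06). Gsdmd, the pore protein of pyroptosis, was 2.42-fold higher (log2 1.28 ± 0.15, adjusted p = 8.86e-06), and Casp4, which senses LPS inside cells and cuts Gsdmd, was higher by 2.07 ± 0.28. The DNA sensor Aim2 (−0.57 ± 0.18) and Tmem173, the adaptor STING (−0.78 ± 0.24), were the 2 lower members.

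Of the NF-kB subunits and feedback inhibitors, 11 of 23 were higher and 0 lower (median 0.84), none of the 11 a subunit. The subunits themselves did not pass, with log2 values of 0.40 for Nfkb1, 0.42 for Nfkb2, 0.22 for Rela, 0.46 for Relb and −0.49 for Rel. Socs3, an inhibitor of cytokine receptor signalling, lay at 149, 128, 275 and 284 CPM against 23.7 to 42.5 (median 28.0) (log2 2.75 ± 0.24, adjusted p = 5.08e-07). Tnip1, a partner of the ubiquitin editor Tnfaip3, lay at 90, 72.2, 131 and 140.1 CPM against 16.2 to 27.6 (median 24.5) (log2 2.19 ± 0.18, adjusted p = 3.98e-07). Nfkbiz, a nuclear cofactor needed for a second wave of NF-kB targets, lay at 57.9, 38.7, 93.6 and 79.3 CPM against 7.14 to 16.5 (median 13.99) (log2 2.31 ± 0.22, adjusted p = 1.02e-06). In each of these 3 genes every LPS mouse lay above every PBS mouse. Nfkbia, the inhibitor that NF-kB itself induces, was higher by 1.59 ± 0.21, and Tnfaip3 by 0.84 ± 0.23.

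Nfkbia and Tnfaip3 are shown with the 250 bases before their start sites, because both are textbook NF-kB targets whose promoters hold a kappa B type motif. The motif was searched as GGANTTTCC, with N for any base, on both strands, in promoter sequences of 250 bases before and 50 after the start site from RefSeq on GRCm38.p6, and its matches are in capitals. Nfkbia (chr12:55492648-55492897, minus strand) held 2 matches, the first beginning at −178 from the start site. Tnfaip3 (chr10:19015411-19015660, minus strand) held 1, at −24.
Nfkbia: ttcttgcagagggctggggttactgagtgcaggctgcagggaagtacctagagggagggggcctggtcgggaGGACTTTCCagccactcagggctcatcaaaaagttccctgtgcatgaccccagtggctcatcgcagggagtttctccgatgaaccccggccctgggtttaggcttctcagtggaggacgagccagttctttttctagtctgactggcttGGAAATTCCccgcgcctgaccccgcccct
Tnfaip3: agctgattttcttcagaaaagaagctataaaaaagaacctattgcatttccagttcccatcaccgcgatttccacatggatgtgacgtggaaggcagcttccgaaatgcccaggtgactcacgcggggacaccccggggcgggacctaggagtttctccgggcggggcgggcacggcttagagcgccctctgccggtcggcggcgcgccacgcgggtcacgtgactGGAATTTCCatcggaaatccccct
Such a match stood in 1.62% of the 9198 tested genes with a promoter in the RefSeq table, in 2.21% of those higher with LPS and in 1.28% of those lower, and in 3 of 20 members of this list. A match of letters is a description and not a binding site.

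Of 23 inflammatory cytokines, 9 were too scarce to test, Il6 and Ifnb1 among them. Il6 had 12 counts over the 4 LPS libraries and 8 over the 9 PBS libraries. Of 14 tested, 4 were higher and 1 lower (median 0.09). Tnf lay at 14.5, 9.11, 23.3 and 25.9 CPM against 0.652 to 2.13 (median 1.38) with PBS, 12.3-fold higher (log2 3.62 ± 0.29, adjusted p = 2.84e-07), with no overlap. Il1b lay at 323, 163, 546 and 548 CPM against 40.6 to 203 (median 90.7), and LPS mouse 6 fell within the PBS range (log2 1.95 ± 0.42, adjusted p = 0.00182). Osm, a cytokine of the interleukin-6 family, lay at 14.99, 7.29, 15.7 and 12.8 CPM against 1.73 to 4.91 (median 4.35) (log2 1.73 ± 0.24, adjusted p = 3.84e-05), and the interferon-inducing cytokine Il27 was higher by 2.47 ± 0.50. Lta, a lymphocyte relative of Tnf, lay at 0.188, 0.672, 0.0914 and 0.386 CPM against 0.551 to 3.72 (median 1.83) and was lower (log2 −2.49 ± 0.49, adjusted p = 9.44e-04), with LPS mouse 6 inside the PBS range. Il10, the anti-inflammatory cytokine, had counts in all 4 LPS libraries (29, 32, 7 and 33) and in none of the 9 PBS libraries, which put it at least 26.7-fold higher against a floor of 3 counts over the PBS group.

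Cytokine receptors, decoys and antagonists were higher in 14 of 16 (median 1.76, 0 lower), a list of interleukin-1, interleukin-18 and TNF receptors and their blockers that also holds receptors of colony-stimulating factors and of other interleukins, and Il1f9, a cytokine of the interleukin-1 family (drawn as IL-1 and TNF receptors and decoys in the plot of called shares by list). Both brakes on interleukin-1 were among the largest: Il1r2, a decoy receptor, lay at 46.1, 27.4, 211 and 113 CPM against 1.252 to 9.99 (median 3.33) (log2 4.56 ± 0.49, adjusted p = 5.09e-06). Il1rn, the receptor antagonist, lay at 74.3, 31.7, 136 and 115 CPM against 4.06 to 12.6 (median 6.06) (log2 3.54 ± 0.35, adjusted p = 2.14e-06). Il18bp, which binds and blocks interleukin-18, was higher by 3.44 ± 0.40. Both TNF receptors were higher, Tnfrsf1b by 1.82 ± 0.23 and Tnfrsf1a by 1.70 ± 0.26. Csf2rb, the shared chain of the receptors of GM-CSF, interleukin-3 and interleukin-5, lay at 174, 156, 288 and 252 CPM against 23.2 to 61.6 (median 31.8) (log2 2.50 ± 0.29, adjusted p = 6.33e-06).

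Chemokines were called higher in 6 of 12 tested of 22 listed, and lower in 1. Cxcl2, a neutrophil attractant, lay at 32.2, 6.17, 33.9 and 25.3 CPM against 0 to 1.76 (median 0.185) (log2 5.46 ± 0.60, adjusted p = 6.33e-06). Ccl2, the monocyte attractant, lay at 3.73, 2.14, 1.55 and 1.76 CPM and had a count in 3 of 9 PBS mice, with a highest value of 0.278 CPM (log2 5.11 ± 0.58, adjusted p = 6.24e-06). Cxcl10, induced by interferon, lay at 4.56, 3.21, 1.92 and 2.75 CPM against 0.162 to 2.76 (median 0.720), with overlapping groups (log2 1.78 ± 0.48, adjusted p = 0.00842). The member lower with LPS was Ppbp, a chemokine stored in platelets (−2.54 ± 0.78).

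Chemoattractant receptors were higher in 10 of 22 and lower in 6. The higher 10 included receptors of neutrophils and monocytes: Fpr1, the receptor of bacterial formyl peptides, lay at 122, 87.9, 287 and 247 CPM against 2.40 to 8.16 (median 3.89) (log2 5.39 ± 0.33, adjusted p = 2.60e-08). Its relative Fpr2 lay at 122, 84.5, 298 and 242 CPM against 3.49 to 11.7 (median 5.78) (log2 4.88 ± 0.36, adjusted p = 1.48e-07). C5ar1, the receptor of complement C5a, was higher by 2.84 ± 0.35, and Cxcr2, the receptor of Cxcl2, by 2.52 ± 0.41. Among the 6 lower were Ccr7, which guides T cells and B cells into lymph nodes, at 11.5, 12.6, 8.69 and 11.4 CPM against 40.0 to 143 (median 82.7) (log2 −3.07 ± 0.32, adjusted p = 2.62e-06), Ccr6 (−2.92 ± 0.46) and S1pr1, which lets lymphocytes leave lymph nodes, at 6.82, 9.51, 6.13 and 7.42 CPM against 15.4 to 63.1 (median 45.2) (log2 −2.68 ± 0.32, adjusted p = 9.31e-06).

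Type I interferon-stimulated genes were higher in 30 of 35 (median 1.76) and lower in 0. Bst2, the tether that holds budding viruses, lay at 114, 46.6, 126 and 85.1 CPM against 9.46 to 17.8 (median 13.4) (log2 2.73 ± 0.21, adjusted p = 2.18e-07). Oas1a, a sensor of double-stranded RNA, lay at 61.9, 46.1, 83.4 and 54.6 CPM against 7.06 to 21.5 (median 10.2) (log2 2.27 ± 0.26, adjusted p = 7.41e-06). Oas2 lay at 69.4, 48.5, 120.2 and 110.0 CPM against 11.4 to 28.5 (median 13.96) (log2 2.26 ± 0.27, adjusted p = 9.29e-06). All 3 separated the groups. Irf7 and Ifit1 overlapped between groups. Irf7, the amplifier of interferon production, lay at 1246, 401, 3014 and 1636 CPM against 126 to 646 (median 205) (log2 2.46 ± 0.52, adjusted p = 0.00149). Ifit1, which binds foreign RNA caps, lay at 95.6, 30.1, 304 and 122 CPM against 15.4 to 82.6 (median 35.05) (log2 1.80 ± 0.49, adjusted p = 0.00903). In both, LPS mouse 6 was lowest and mouse 7 highest of the LPS group, and mouse 6 fell within the PBS range. Without mouse 7, Ifit1 was at 1.09 with an adjusted p of 0.0816. The list median of mouse 6 was 0.68 above the PBS mean and that of mouse 7 was 2.60 above it. Among the 5 members not called were Rsad2 (0.52), Mx1 (0.49), Ifit2 (−0.64) and Isg20 (−1.07).

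Bst2 and Oas1a are shown because their promoters hold the letters of an interferon response element, searched as GAAA, 2 bases of any kind and GAAA on both strands. Each held 2 overlapping matches, in capitals, the first at −130 from the start site in Bst2 (chr8:71537473-71537722, minus strand) and at −20 in Oas1a (chr5:120907526-120907775, minus strand).
Bst2: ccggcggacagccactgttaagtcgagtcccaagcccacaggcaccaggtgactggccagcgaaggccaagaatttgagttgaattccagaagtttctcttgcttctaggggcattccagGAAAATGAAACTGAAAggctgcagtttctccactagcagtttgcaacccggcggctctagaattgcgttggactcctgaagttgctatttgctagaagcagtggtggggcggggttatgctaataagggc
Oas1a: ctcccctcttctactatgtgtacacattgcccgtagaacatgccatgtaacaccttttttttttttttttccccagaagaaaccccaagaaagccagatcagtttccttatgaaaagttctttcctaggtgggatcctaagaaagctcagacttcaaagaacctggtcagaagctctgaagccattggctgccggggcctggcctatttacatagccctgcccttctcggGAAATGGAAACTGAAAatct
The match was found in 16 of 27 interferon-stimulated genes of the list and in 10 of 14 interferon-gamma-induced genes with a promoter in the table, against 4.09% of all tested genes, 5.79% of the genes higher with LPS and 2.96% of those lower. Of the interferon-gamma-induced genes, 11 of 20 were higher and 0 lower (median 0.77). Nos2, the inducible nitric oxide synthase, lay at 10.3, 9.72, 30.5 and 23.5 CPM and had counts in 1 of 9 PBS libraries (highest 0.120 CPM), while Gbp2, a GTPase that attacks pathogen vacuoles, lay at 90.4, 34.9, 528 and 126 CPM against 7.57 to 19.2 (median 12.9) (log2 3.82 ± 0.47, adjusted p = 1.75e-05). Batf2, a factor of macrophage activation, lay at 2.52, 2.39, 13.3 and 5.19 CPM against 0 to 0.433 (median 0.0926) (log2 5.01 ± 0.55, adjusted p = 4.75e-06). MHC class I and immunoproteasome genes, which interferons also induce, were called in 1 of 15, Psme2 (0.93 ± 0.17, adjusted p = 5.23e-04), with a median of 0.34 and members between −0.15 (Nlrc5) and 0.93.

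Neutrophil genes had the largest medians of the cell type lists. Of 26 mature neutrophil markers, 24 were higher (median 3.06) and 0 lower, and of 16 secondary and tertiary granule genes 15 were higher (median 3.76). In bulk blood, a change in the number of cells of a type and a change in the RNA per cell cannot be told apart. Lcn2, which starves bacteria of iron carriers, lay at 814, 329.7, 1584 and 1056 CPM against 5.70 to 28.6 (median 12.2) (log2 6.14 ± 0.45, adjusted p = 1.51e-07). Mmp25, a membrane protease of tertiary granules, lay at 75.8, 37.9, 132 and 115 CPM against 2.84 to 7.82 (median 4.86) (log2 4.18 ± 0.31, adjusted p = 1.48e-07). Cd177, a neutrophil surface protein, lay at 193, 84.4, 313 and 205 CPM against 6.84 to 20.6 (median 10.9) (log2 3.91 ± 0.33, adjusted p = 3.98e-07). The groups did not overlap in any of the 3. S100a8 and S100a9, the calprotectin subunits, were higher by 3.90 ± 0.42 and 3.52 ± 0.44, and Ly6g, the antigen by which mouse neutrophils are identified, by 4.61 ± 0.41. Granule genes made at the myelocyte stage were higher too, Camp by 3.93 ± 1.08, Ltf by 4.90 ± 0.89 and Ngp by 5.58 ± 0.90. Among members that did not pass were Clec4d (1.09) and Lyz2 (−0.14).

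Primary granule genes, which mark promyelocytes, were at the edge of detection, and 1 of 6 was tested. Prtn3, a serine protease, lay at 63.5, 3.53, 0.914 and 0.944 CPM against 0.0963 to 2.38 (median 0.441) (log2 4.99 ± 0.99, adjusted p = 0.00107), so that mouse 2 alone held 63.5 CPM and the other 3 LPS mice 3.53 or less, within or just above the PBS range. Without LPS mouse 2 the log2 difference was 1.68 with an adjusted p of 0.0797, and Prtn3 was then not called.

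Acute phase and antimicrobial proteins were higher in 15 of 19 tested and lower in 2 (median 3.52). Saa3, the serum amyloid A made outside the liver (GRCm38 chromosome 7, 46711998 to 46715700), lay at 176, 169.9, 129 and 118 CPM against 0 to 0.827 (median 0.193) (log2 9.49 ± 0.41, adjusted p = 7.28e-10). Prok2, a secreted attractant of neutrophils and monocytes, lay at 33.5, 25.6, 60.1 and 36.8 CPM and had 0 counts in all 9 PBS libraries, at least 1089-fold higher against a floor of 3 counts over that group. Wfdc21, a protease inhibitor, lay at 74.7, 33.6, 125 and 98.6 CPM against 0.926 to 2.76 (median 1.62) (log2 5.68 ± 0.28, adjusted p = 1.93e-09). Both members lower with LPS, Thbs1 (−2.06 ± 0.67) and F5 (−2.23 ± 0.71), are products of platelets and of coagulation. Saa3 and Lcn2 are shown with their promoters, since both hold a match to the C/EBP type letters TTGCNNAA (searched on both strands), the element of acute phase genes, which begins at −99 from the start site in Saa3 (chr7:46715677-46715926, minus strand) and at −216 in Lcn2 (chr2:32387740-32387989, minus strand).
Saa3: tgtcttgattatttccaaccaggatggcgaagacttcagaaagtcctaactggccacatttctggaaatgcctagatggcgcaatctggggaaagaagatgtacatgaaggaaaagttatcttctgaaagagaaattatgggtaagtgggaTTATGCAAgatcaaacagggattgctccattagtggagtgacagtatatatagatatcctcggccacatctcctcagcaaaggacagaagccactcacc
Lcn2: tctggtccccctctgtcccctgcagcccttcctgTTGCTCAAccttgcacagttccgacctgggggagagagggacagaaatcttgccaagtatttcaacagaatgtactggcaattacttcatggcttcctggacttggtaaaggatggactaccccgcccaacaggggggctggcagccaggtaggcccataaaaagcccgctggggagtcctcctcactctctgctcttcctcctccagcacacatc
That match stood in 6 of 14 acute phase members, 5 of 14 secondary granule genes and 10.4% of all tested genes, and in 11.4% of the higher and 10.6% of the lower genes.

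**Figure D3:**
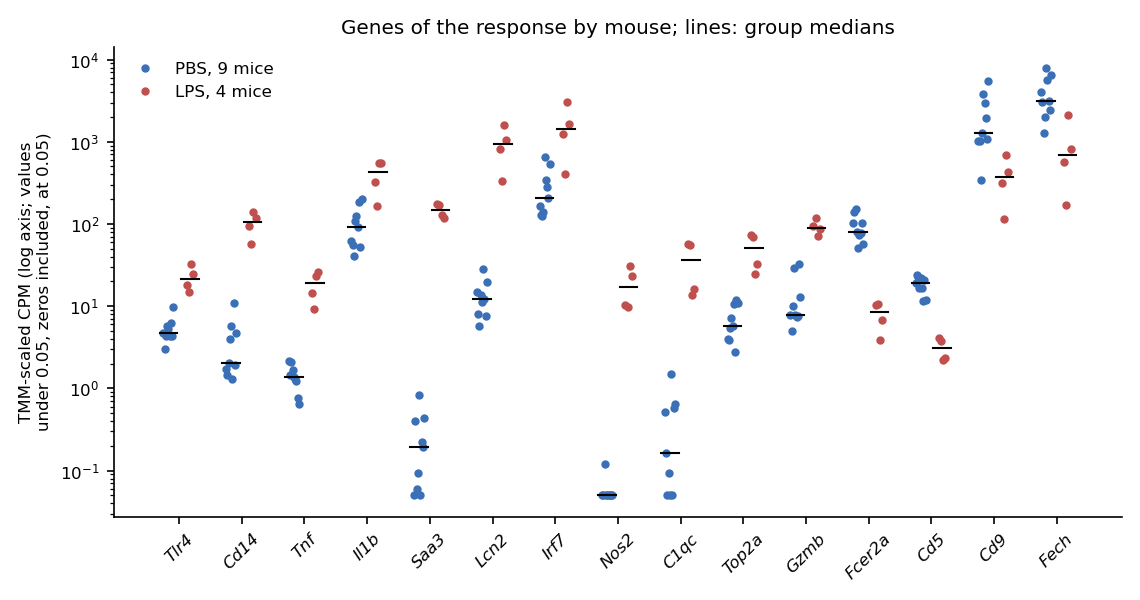
TMM-scaled CPM on a log axis of 15 genes in each of 9 PBS mice (blue) and 4 LPS mice (red), with values under 0.05 CPM drawn at 0.05 and black lines at group medians. Tlr4, Cd14, Tnf, Saa3, Lcn2, Nos2, C1qc, Top2a and Gzmb lay above every PBS mouse in all LPS mice and Fcer2a and Cd5 below, while Il1b, Irf7, Cd9 and Fech overlapped.

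Monocyte markers were higher in 12 of 20 and lower in 2 (median 1.00). Genes of patrolling monocytes were among the higher: Treml4 lay at 53.0, 82.0, 53.0 and 73.4 CPM against 9.78 to 19.5 (median 13.6) (log2 2.15 ± 0.19, adjusted p = 6.50e-07). Nr4a1, the factor these cells need, lay at 155, 203, 207 and 245 CPM against 31.8 to 59.9 (median 41.5) (log2 2.17 ± 0.20, adjusted p = 1.07e-06), and Ace was higher by 1.24 ± 0.24. Adgre1, the macrophage antigen F4/80, lay at 88.4, 108, 48.6 and 66.7 CPM against 11.1 to 24.7 (median 14.4) (log2 2.34 ± 0.22, adjusted p = 9.86e-07). Ly6c2, an antigen of classical monocytes, was also called higher. Chemokine receptors that separate the subsets did not pass, Ccr2 at −0.25 and Cx3cr1 at −0.44. The 2 lower members, F13a1 (−2.11 ± 0.73), which platelets also carry, and Lyz1 (−2.10 ± 0.49), went against the rest.

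Opsonin and pattern receptors of phagocytes were higher almost throughout, with 14 of 17 complement and Fc receptor genes (1 lower, median 2.77) and 18 of 21 lectins, TREM and CD300 receptors (0 lower, median 2.20). All 3 chains of C1q, the first component of the classical complement pathway, stood out: C1qc lay at 56.4, 55.6, 13.7 and 16.3 CPM against 0 to 1.51 (median 0.162) (log2 6.78 ± 0.61, adjusted p = 1.14e-06), C1qb was higher by 6.51 ± 0.61 and C1qa by 6.15 ± 0.69. LPS mice 2 and 6 held more C1qc than mice 7 and 8, the reverse of their order for Lcn2 and Irf7. Fcgr4, an activating IgG receptor, lay at 76.4, 68.9, 130.0 and 118 CPM against 5.88 to 19.0 (median 11.3) (log2 3.08 ± 0.27, adjusted p = 6.10e-07). Cfp, the stabiliser of the alternative complement pathway, lay at 144, 126, 119 and 112 CPM against 9.41 to 21.5 (median 15.3) (log2 3.03 ± 0.23, adjusted p = 2.11e-07). Cd55, which protects cells from complement and is carried by red cells and lymphocytes, was the one lower member (−2.44 ± 0.23). Of the lectin group, Trem3 lay at 44.8, 30.1, 62.4 and 56.3 CPM against 3.90 to 11.7 (median 6.05) (log2 3.00 ± 0.25, adjusted p = 3.88e-07), Clec4e, a sensor of mycobacterial lipid, was higher by 3.17 ± 0.34, and the inhibitory receptor Pirb lay at 195, 179.9, 376 and 331 CPM against 29.5 to 72.3 (median 42.8) (log2 2.45 ± 0.27, adjusted p = 4.75e-06).

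Matrix-degrading proteases, their inhibitors and the urokinase receptor were higher in 10 of 14 (median 1.65), among them the inhibitor Timp2 (1.66 ± 0.20). Mmp14, a membrane protease of macrophages and stroma, lay at 43.0, 65.3, 16.3 and 32.8 CPM against 0 to 0.385 (median 0.0600) (log2 8.15 ± 0.47, adjusted p = 1.52e-08). Plaur, the urokinase receptor, lay at 53.2, 41.0, 62.3 and 55.1 CPM against 13.6 to 27.0 (median 16.7) (log2 1.65 ± 0.18, adjusted p = 4.60e-06). Integrins split, with 6 of 18 higher and 5 lower. Itgam, the alpha chain of Mac-1 on neutrophils and monocytes, lay at 109, 91.1, 191 and 168 CPM against 11.1 to 32.7 (median 21.2) (log2 2.77 ± 0.27, adjusted p = 1.94e-06). The lower members Itga6 (−2.61 ± 0.67), Itgb3 (−2.07 ± 0.67), Itgb1 (−1.69 ± 0.59) and Itga2 (−1.69 ± 0.59) are integrins that platelets carry, beside Icam2 (−0.94 ± 0.33), and the 5 became 2 without LPS mouse 2 or 6, 3 without mouse 7 and 1 without mouse 8.

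B cell transcripts were lower in 23 of 24 (median −2.43). Fcer2a, the low-affinity IgE receptor of mature B cells (GRCm38 chromosome 8, 3681737 to 3694175), lay at 10.4, 10.5, 3.84 and 6.73 CPM against 51.3 to 152 (median 80.0) (log2 −3.55 ± 0.38, adjusted p = 3.60e-06). Ralgps2 lay at 14.96, 12.03, 10.6 and 11.6 CPM against 50.7 to 99.8 (median 65.8) (log2 −2.50 ± 0.23, adjusted p = 9.82e-07), and Pax5, the factor that keeps B cell identity, was lower (−2.65 ± 0.38). Variable segments of immunoglobulin genes went the same way, with 69 of 89 lower, 0 higher and a median of −1.91. MHC class II genes, which B cells, dendritic cells and monocytes use to present antigen, were lower in 10 of 10 (median −2.59), and in all 10 every LPS mouse lay below every PBS mouse. H2-Ob lay at 18.01, 20.7, 9.42 and 14.8 CPM against 75.4 to 229.9 (median 109) (log2 −3.04 ± 0.36, adjusted p = 9.11e-06), as were H2-Aa (−2.67 ± 0.38) and Ciita, the master activator of the class (−2.58 ± 0.38).

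T cell transcripts were lower in 25 of 26 (median −2.18), the exception being Lck (−0.77). Cd5, a surface inhibitor of T cell receptor signalling, lay at 4.07, 3.78, 2.19 and 2.36 CPM against 11.6 to 23.7 (median 19.0) (log2 −2.54 ± 0.26, adjusted p = 2.33e-06). Cd28, the main co-stimulator, lay at 5.39, 5.17, 5.49 and 3.90 CPM against 11.6 to 27.6 (median 18.8) (log2 −1.95 ± 0.21, adjusted p = 4.58e-06). The size differed among members, from −3.07 for Ccr7, −2.82 for Lef1 and −2.72 for Tcf7, all genes of naive and memory cells, to −1.05 for Thy1 and −1.08 for Cd247, the zeta chain that NK cells share. Variable segments of T cell receptor genes were lower in 10 of 12 and higher in 1. GIMAP genes, GTPases that keep lymphocytes alive, were lower in 6 of 8 (median −1.47), as Gimap6 at 34.3, 41.2, 21.4 and 27.6 CPM against 86.0 to 169 (median 115) (log2 −1.98 ± 0.26, adjusted p = 1.98e-05). PBS mouse 9 had the lowest T cell level of its group, with a list median 1.20 below the PBS mean, against 1.75 to 2.11 below it in the LPS mice.

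Homing and egress genes were lower in 6 of 14 and higher in 1 (median −0.48, which turned to 0.47 on library totals). Gpr183, which positions B cells and dendritic cells by an oxysterol, lay at 2.34, 3.34, 1.10 and 2.14 CPM against 9.65 to 22.6 (median 15.8) (log2 −2.81 ± 0.31, adjusted p = 4.90e-06). The early activation antigen Cd69, which holds lymphocytes in tissue by removing S1pr1 from the surface, was lower (−2.13 ± 0.28), and Itgal, a chain of LFA-1, was higher (0.81 ± 0.30).

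Of 22 NK cell and cytotoxic genes, 10 were higher with LPS and 0 lower (median 0.92), and 17 were higher without PBS mouse 4, whose list median was the highest of the PBS group at 0.79. Gzmb, a granzyme of killer cells, lay at 93.4, 117, 71.4 and 86.1 CPM against 4.95 to 32.6 (median 7.84) (log2 2.78 ± 0.41, adjusted p = 9.77e-05). Prf1, the pore protein that lets granzymes in, lay at 79.5, 129, 77.4 and 87.2 CPM against 11.3 to 37.0 (median 20.2) (log2 2.08 ± 0.24, adjusted p = 8.43e-06). Ncr1, the NK receptor NKp46, lay at 20.9, 34.8, 25.1 and 27.2 CPM against 3.58 to 16.4 (median 7.32) (log2 1.67 ± 0.26, adjusted p = 1.11e-04). In each of the 3 every LPS mouse lay above every PBS mouse. Also higher were the receptors Klra4 (1.27 ± 0.31) and Klra8 (1.04 ± 0.22), Il2rb (0.97 ± 0.35), the adaptor Sh2d1b1 (1.62 ± 0.28) and the factor Eomes (0.90 ± 0.29), and among the 12 that did not pass were Klrb1c (0.66) and Klrd1 (0.03).

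Dendritic cell markers were lower in 6 of 15 and higher in 3, with a median of −0.69 that turned to 0.36 on library totals. Cd209a, a lectin of dendritic cells and monocyte-derived cells, had the largest difference on the lower side, at 0.113, 0.0630, 0 and 0 CPM against 1.44 to 9.91 (median 2.21) (log2 −5.71 ± 0.76, adjusted p = 2.82e-05), with 3 counts each in LPS mice 2 and 6, none in mice 7 and 8, and 289 counts over the 9 PBS libraries. Its size is therefore set by very few counts. Markers of cross-presenting dendritic cells went both ways: Clec9a (−2.49 ± 0.49) and Xcr1 (−2.21 ± 0.75) were lower and Batf3, a factor these cells need, was higher (1.10 ± 0.42). The other 2 higher members were Itgax (0.85 ± 0.22), the integrin CD11c, and Bst2, which is also interferon-stimulated, while Siglech (0.73), of plasmacytoid cells, did not pass. Cd8a (−1.80 ± 0.38), also on T cells, and Ly6d (−2.50 ± 0.38), also on B cells, are among the lower 6. Of basophil, mast cell and eosinophil markers 8 of 14 were tested, and the eosinophil receptors Il5ra (−2.77 ± 0.32) and Ccr3 (−2.41 ± 0.57) were lower, while Ear2, also made by monocytes, was higher (0.83 ± 0.19).

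Platelet markers were lower in 16 of 23 and higher in 0 (median −2.06), but the groups overlapped in every one. Cd9, a tetraspanin of the platelet surface, lay at 316, 113, 697 and 429 CPM against 344 to 5415 (median 1277) (log2 −2.43 ± 0.73, adjusted p = 0.0154). The calls rested on few libraries: 0 of 23 remained called without LPS mouse 2 or without LPS mouse 6, 6 without mouse 8, and 10 without PBS mice 5, 6 and 9, where the median was −1.12. Those 3 PBS mice, in which fewer than 16000 genes were detected, had platelet medians of 1.43, 0.73 and 1.94 above the PBS mean, and PBS mouse 3 lay 2.08 below it, lower than LPS mice 7 (−0.70) and 8 (−1.57). Vwf (−1.93 ± 0.68), Esam (−1.74 ± 0.61) and Pecam1 (−1.29 ± 0.49), 3 of 5 tested endothelial transcripts that platelets also carry, were called lower, and 0 of them without those 3 PBS mice, whereas Cdh5, the cadherin of endothelial junctions, did not pass (0.85).

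Erythroid and reticulocyte genes had a median of −1.53, or −0.46 on library totals. Of 24 tested, 5 were called lower, a share near the 17.9% of all genes, and 1 higher. In 0 of them did every LPS mouse lie below every PBS mouse. Fech, the last enzyme of haem synthesis, lay at 562, 169, 2129 and 807 CPM against 1282 to 7817 (median 3104) (log2 −2.12 ± 0.69, adjusted p = 0.0233). The mitophagy receptor Bnip3l, which clears mitochondria from reticulocytes, lay at 415, 142, 1336 and 578 CPM against 640.3 to 4399.6 (median 1889.7) (log2 −1.86 ± 0.66, adjusted p = 0.0335). In both genes LPS mouse 7 fell within the PBS range. The number of lower calls was 1 without PBS mice 5, 6 and 9, 0 without LPS mouse 2, 6 or 8, 2 or 3 without PBS mouse 1, 5, 6, 7 or 9, 10 without PBS mouse 3 and 13 without LPS mouse 7. Rhag, a membrane protein of erythroid precursors, was higher (1.75 ± 0.61). Of the adult globin genes, Hbb-bt was among the 5 called lower, and Hba-a1, Hba-a2 and Hbb-bs were not called. Mitochondrially encoded transcripts were lower in 10 of 10 (median −1.37), 8 of them without overlap; mt-Nd6 lay at 51.1, 51.2, 47.5 and 51.1 CPM against 79.7 to 117 (median 102) (log2 −1.01 ± 0.18, adjusted p = 3.09e-04). Their list median was 0.72, 0.21 and 0.80 above the PBS mean in PBS mice 5, 6 and 9. With those mice left out 10 of 10 were still called, with a median of −1.03. On library totals in place of TMM, the median of this list was −0.16.

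**Figure D4:**
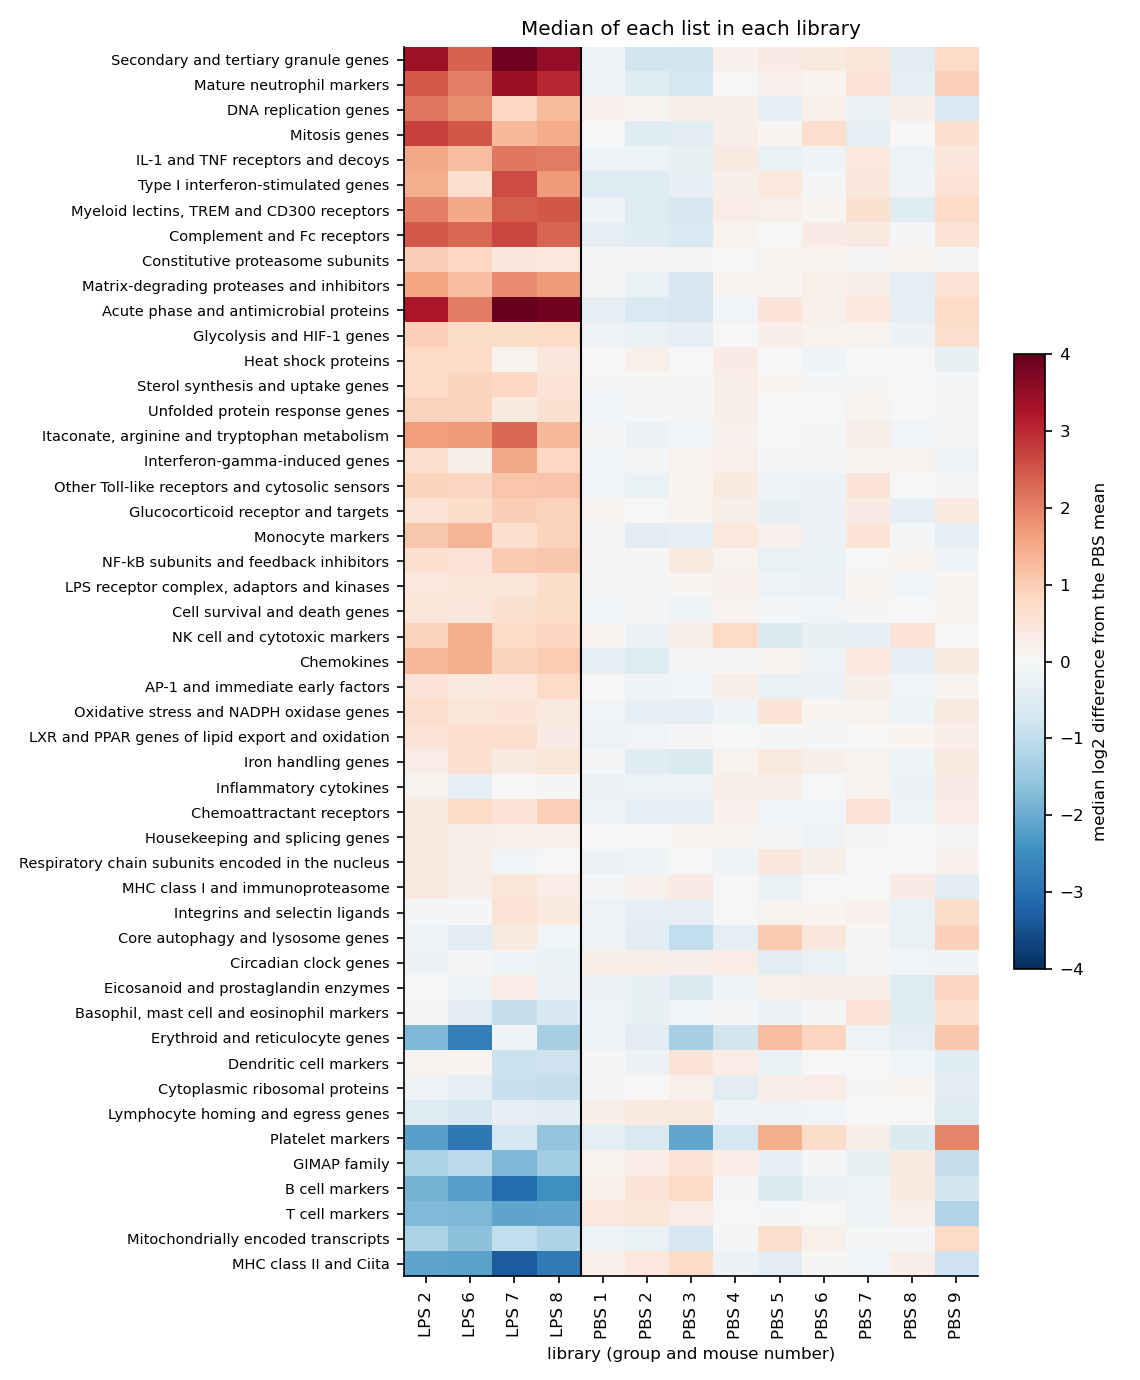
Median log2 difference from the PBS mean of each gene list (rows, 8 or more members tested) in each of 4 LPS and 9 PBS libraries (columns), from −4 in blue to 4 in red, values beyond the scale at its end colours. The lists of neutrophil, type I interferon, B cell and T cell genes differ between groups in every LPS library. For type I interferon genes the margin is narrow, with LPS mouse 6 at 0.68 and PBS mouse 9 at 0.54. Platelet and erythroid lists vary widely among PBS libraries, from −2.08 (mouse 3) to 1.94 (mouse 9) for platelets.

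Energy metabolism showed higher glycolysis transcripts, in 14 of 23 (median 0.74, 0 lower). Slc16a3, the lactate exporter, lay at 109.6, 109, 129.7 and 134 CPM against 14.6 to 31.1 (median 17.9) (log2 2.58 ± 0.20, adjusted p = 2.36e-07). Slc2a1, the glucose importer, lay at 40.5, 27.3, 51.6 and 49.8 CPM against 6.06 to 14.6 (median 11.3) (log2 1.90 ± 0.20, adjusted p = 3.09e-06). Pgam1, a glycolytic mutase, lay at 68.7, 58.9, 52.2 and 46.9 CPM against 9.95 to 23.7 (median 15.1) (log2 1.84 ± 0.19, adjusted p = 2.33e-06). Subunits of the respiratory chain encoded in the nucleus had a median of 0.15, with 6 of 25 higher, a share near that of all genes, and 3 lower. The 6 became 2 without LPS mouse 2 or 6 and 3 without PBS mice 5, 6 and 9, and the 3 became 5 without PBS mouse 3.

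Enzymes of itaconate and arginine were among the largest changes. Acod1, which makes the antimicrobial metabolite itaconate, lay at 41.0, 33.6, 55.0 and 53.7 CPM against 0.0852 to 1.32 (median 0.433) (log2 6.46 ± 0.32, adjusted p = 1.93e-09). Arg1, the arginase that competes with Nos2, was higher by 4.72 ± 0.63 and Arg2 by 2.10 ± 0.41. Slc7a11, the cystine importer, lay at 6.93, 5.71, 9.14 and 12.9 CPM against 0.300 to 2.10 (median 1.20) (log2 2.89 ± 0.34, adjusted p = 9.14e-06). Odc1, which turns ornithine into polyamines, was lower (−2.74 ± 0.66), as was Kynu of tryptophan breakdown (−1.87 ± 0.47). Of this list 7 of 9 were higher and 2 lower.

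Sterol synthesis and uptake genes were higher in 10 of 16 and lower in 1 (median 0.82). Mvd of the mevalonate pathway lay at 16.6, 15.2, 24.5 and 22.4 CPM against 5.78 to 7.81 (median 6.57) (log2 1.59 ± 0.15, adjusted p = 1.58e-06). Nr1h3, the sterol receptor LXR alpha of macrophages, lay at 54.6, 65.4, 23.1 and 34.1 CPM against 0 to 1.85 (median 0.865) (log2 5.57 ± 0.35, adjusted p = 3.10e-08), but its export targets Abca1 (−0.50) and Abcg1 (0.24) did not pass and Mylip was lower (−1.33 ± 0.20). In that list 7 of 15 were higher and 2 lower, among the higher Plin2, the coat of lipid droplets (2.27 ± 0.24, adjusted p = 3.44e-06).

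Iron genes were higher in 6 of 13 and lower in 2. Hmox1, which breaks down haem, lay at 100.2, 159, 56.6 and 62.1 CPM against 4.79 to 11.03 (median 9.26) (log2 3.48 ± 0.26, adjusted p = 1.75e-07). Slc11a1, the phagosomal metal pump known as Nramp1, lay at 149, 143, 226 and 198 CPM against 16.8 to 36.6 (median 24.5) (log2 2.79 ± 0.22, adjusted p = 2.14e-07). Ferritin light chain Ftl1 (−1.77 ± 0.67) and Ncoa4 (−1.64 ± 0.50), both abundant in reticulocytes, were lower. The NADPH oxidase, which makes superoxide, was higher in subunits that include Ncf4 (1.87 ± 0.20, adjusted p = 3.01e-06), Ncf1 (1.41 ± 0.21), Cyba (1.04 ± 0.20) and Cybb (0.70 ± 0.24), while the peroxide scavenger Prdx6, abundant in red cells, was lower (−1.85 ± 0.61). Eicosanoid genes split with 4 of 13 higher and 5 lower: Ptges, the inducible prostaglandin E synthase, was higher (3.11 ± 0.66), and the 5 lower were Hpgd (−2.65 ± 0.24, adjusted p = 8.39e-07), which inactivates prostaglandins, the platelet enzymes Alox12 (−2.20 ± 0.70) and Tbxas1 (−1.59 ± 0.60), Alox15 (−1.73 ± 0.46) and Ptgs2 (−1.61 ± 0.54), the inducible cyclooxygenase. Without LPS mouse 6 or 8, 2 members were called lower, and 3 without mouse 2.

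Stress programs were higher in part. Of unfolded protein response genes, which match the folding capacity of the endoplasmic reticulum to its load, 11 of 18 were higher and 1 lower (median 0.80). Sdf2l1, a cofactor of the chaperone Hspa5, lay at 29.6, 27.4, 9.33 and 13.04 CPM against 1.10 to 4.43 (median 3.07) (log2 2.74 ± 0.30, adjusted p = 4.58e-06). Xbp1, the transcription factor of the response, lay at 94.9, 92.6, 128 and 106 CPM against 26.1 to 46.2 (median 30.1) (log2 1.62 ± 0.18, adjusted p = 6.21e-06). Heat shock proteins were higher in 7 of 12 (4 without LPS mouse 2), with Hspa8 at 474, 594, 323 and 364 CPM against 139 to 252 (median 197) (log2 1.19 ± 0.25, adjusted p = 0.00151). Of survival and death genes 13 of 23 were higher and 2 lower, or 4 lower without PBS mouse 3 (median 0.70). These stood on both sides: Mlkl, the executioner of necroptosis, lay at 7.01, 5.86, 10.6 and 6.00 CPM against 0.325 to 1.65 (median 0.652) (log2 3.07 ± 0.35, adjusted p = 6.14e-06). The pro-apoptotic Pmaip1 lay at 30.5, 30.8, 45.3 and 46.6 CPM against 5.58 to 12.4 (median 7.06) (log2 2.30 ± 0.19, adjusted p = 3.45e-07), while the survival gene Bcl2a1a was higher by 3.06 ± 0.45 and Mcl1 by 0.70 ± 0.26.

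Immediate early factors were higher in 9 of 19 and lower in 2, with Ier3, a survival gene, at 18.6, 11, 38.4 and 30.4 CPM against 1.22 to 4.30 (median 1.95) (log2 3.24 ± 0.35, adjusted p = 3.98e-06). Jun lay at 23.1, 25.3, 32.8 and 32.2 CPM against 6.49 to 12.7 (median 8.01) (log2 1.59 ± 0.18, adjusted p = 7.73e-06). Fos (−0.21), Junb (0.60) and Myc (−0.17) did not pass. Glucocorticoid targets were higher in 7 of 13 and lower in 0. Fkbp5, a co-chaperone of the receptor, lay at 36.8, 39.7, 86.0 and 60.6 CPM against 6.08 to 13.1 (median 9.16) (log2 2.58 ± 0.22, adjusted p = 3.98e-07). Anxa1, an anti-inflammatory annexin abundant in neutrophils, lay at 211, 113, 405 and 270.4 CPM against 20.9 to 65.4 (median 29.6) (log2 2.73 ± 0.35, adjusted p = 2.02e-05). Tsc22d3, a glucocorticoid target also known as GILZ, did not pass (−0.43). Clock genes moved in opposite directions, 4 of 13 higher and 4 lower. Nfil3 (1.83 ± 0.21, adjusted p = 6.86e-06), Bhlhe40 (1.58 ± 0.24, adjusted p = 9.13e-05), Per2 (1.88 ± 0.40) and Cry1 (1.14 ± 0.25) were higher, and Arntl (−1.14 ± 0.24, adjusted p = 0.00145), the core activator Bmal1, Dbp (−1.69 ± 0.36), Nr1d2 (−0.93 ± 0.23) and Cry2 (−0.86 ± 0.30) were lower. The labels give no hour of sampling, so treatment and hour cannot be told apart for these genes.

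Proliferation genes were higher with LPS, 19 of 21 mitosis genes (median 2.30) and 20 of 22 DNA replication genes (median 1.57), with 0 lower in either. Top2a, the topoisomerase of dividing cells, lay at 73.2, 69.6, 24.6 and 32.9 CPM against 2.76 to 11.8 (median 5.79) (log2 2.88 ± 0.36, adjusted p = 1.92e-05). Cdk1, the kinase that starts mitosis, lay at 15.1, 12.6, 4.21 and 4.59 CPM against 0 to 1.297 (median 0.827) (log2 3.51 ± 0.45, adjusted p = 2.09e-05). Cdc6, which licenses replication origins, lay at 9.83, 8.38, 3.57 and 4.16 CPM against 0.331 to 1.52 (median 0.867) (log2 3.04 ± 0.38, adjusted p = 1.35e-05). In these 3 genes LPS mice 2 and 6 held more than mice 7 and 8, and all 4 lay above every PBS mouse. E2f1, an activator of S phase genes, was 4.72-fold higher (log2 2.24 ± 0.25, adjusted p = 5.48e-06), and E2f8, a repressor of the same family, 6.51-fold (log2 2.70 ± 0.31, adjusted p = 6.21e-06). A match to the E2F type letters TTTNGCGC, on either strand, stood in the promoters of 8 of 20 DNA replication genes and of 1 of 18 mitosis genes, against 2.88% of all tested genes, 3.14% of those higher and 1.75% of those lower.

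Of the protein machinery, constitutive proteasome subunits were higher in 17 of 23 (median 0.72, 0 lower), by modest amounts, as Psmc2, an ATPase of the base, at 28.3, 25.8, 18.7 and 21.6 CPM against 8.04 to 13.8 (median 11.5) (log2 1.04 ± 0.15, adjusted p = 5.61e-05). Cytoplasmic ribosomal proteins were lower in 11 of 32 and higher in 0 (median −0.61), as Rps24 at 191, 169, 172 and 139.9 CPM against 282 to 561 (median 373) (log2 −1.23 ± 0.28, adjusted p = 0.00253). Their median turned to 0.56 on library totals, and the 11 became 3 without LPS mouse 8, 6 without mouse 7, and 7 without mouse 6. Autophagy and lysosome genes were higher in 5 of 20 and lower in 4, shares near those of all genes (20.9% and 17.9%). Ctsl, a lysosomal protease, lay at 16.5, 21.4, 9.23 and 9.95 CPM against 1.38 to 4.11 (median 2.21) (log2 2.64 ± 0.27, adjusted p = 2.17e-06), and Gabarapl1 (−2.15 ± 0.63) and Map1lc3b (−1.64 ± 0.58), autophagosome coat proteins abundant in reticulocytes, were lower. Without PBS mice 5, 6 and 9 the 4 lower calls became 1, and without LPS mouse 2, 6 or 8 they became 1, 0 and 1, and the 5 higher calls became 3 without LPS mouse 8. Housekeeping and splicing genes had a median of 0.13, with 3 of 18 higher (Gusb, Gapdh and Hprt; 5 without PBS mouse 9) and 0 lower. The medians of eicosanoid, clock, basophil and eosinophil, and autophagy genes also turned from below 0 to above 0 on library totals.

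Of all genes, 19 had 0 counts in all 9 PBS libraries and at least 3 counts in each LPS library, 10 of them predicted genes or pseudogenes. The reverse, a stricter rule since it asks for counts in 9 libraries, was met by 0 genes. An immunoglobulin heavy chain segment (Ighv1-47) was the 1 gene with 0 counts in all LPS libraries and at least 3 in 7 PBS libraries. Depth differed as well, with 3 counts at 0.063 to 0.274 CPM with LPS and 0.18 to 0.827 with PBS. A scarce gene therefore gives 0 counts more easily in a PBS library. Prok2 and Marco, a scavenger receptor of macrophages that binds bacteria, led the 19. Marco lay at 20.7, 18.04, 4.85 and 12.2 CPM, at least 389-fold above a floor of 3 counts over the PBS group. Ccl7, a monocyte attractant, had 39, 64, 12 and 12 counts (at least 30.9-fold), and Chga, chromogranin A, 10, 3, 41 and 22 (at least 35.8-fold). These bounds set the mean of the LPS mice against the floor over the PBS group. Chga lay at 0.377, 0.0630, 3.75 and 0.944 CPM, highest in mouse 7 and at the floor of 3 counts in mouse 6. Lipg, an endothelial lipase also made by macrophages, had counts in the PBS group and rose from a PBS median of 0 and a highest value of 0.0926 CPM to 61.6, 23.8, 143 and 94.0 CPM. Gpr84, a receptor of medium-chain fatty acids, lay at 8.66, 6.66, 10.3 and 12.8 CPM against 0 to 0.289 (median 0) (log2 6.88 ± 0.51, adjusted p = 1.67e-07). Upp1, which splits uridine, lay at 50.9, 29.7, 75.7 and 71.6 CPM against 0 to 1.52 (median 0.568) (log2 6.68 ± 0.48, adjusted p = 2.02e-07).

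On the lower side, the largest differences outside the cell type lists were mixed. Tdrp lay at 0.452, 0.630, 0.366 and 0.515 CPM against 2.17 to 13.6 (median 8.82) (log2 −4.09 ± 0.44, adjusted p = 4.02e-06). Rapgef4, an exchange factor that senses cyclic AMP, lay at 0.452, 0.630, 0.0914 and 0.515 CPM against 1.955 to 8.60 (median 6.58) (log2 −3.58 ± 0.45, adjusted p = 1.48e-05). Scn4a, a sodium channel, lay at 0.791, 0.798, 0.549 and 1.24 CPM against 3.25 to 16.5 (median 7.596) (log2 −3.28 ± 0.44, adjusted p = 3.14e-05). In each of these every LPS mouse lay below every PBS mouse. A further set varied widely among the PBS mice, as Ttll11 at 10.0 to 149.9 (median 30.6) with PBS and 3.39, 1.39, 8.50 and 3.09 CPM with LPS (log2 −3.79 ± 0.73, adjusted p = 8.83e-04), Angpt1, a ligand of the endothelial receptor Tek, at 10.9 to 153 (median 47.2) and 4.33, 3.57, 12.4 and 7.46 CPM (log2 −3.26 ± 0.63, adjusted p = 8.19e-04), and Gmpr at 11.5 to 169 (median 33.9) and 3.69, 4.22, 8.23 and 7.33 CPM (log2 −3.40 ± 0.66, adjusted p = 9.20e-04). LPS mouse 7 overlapped the PBS range in Angpt1 alone of these 3, and in each it had the highest value of its group, as it did for platelet and erythroid genes.

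Transcription factor genes, by a family column in the authors' deposited table, were called about as often in each direction. Of 757 tested, 130 (17.2%) were higher and 154 (20.3%) lower. The 349 zinc fingers of the C2H2 type were higher in 28 (8.02%) and lower in 75 (21.5%), with a median of −0.28. Basic leucine zipper factors, the family of AP-1 and C/EBP, were higher in 17 of 39 and lower in 4 (median 0.58), led by Batf2, Xbp1 and Nfil3. E2F family members were higher in 6 of 10 and lower in 1. By gene type, protein-coding genes were higher in 22.1% and lower in 16.1%, whereas long intergenic RNAs were higher in 13.7% and lower in 30.4% (227 tested) and processed pseudogenes higher in 6.49% and lower in 28.1% (370 tested). Antisense genes were higher in 13.6% and lower in 32.7% of 162, and since the strand setting of the counting is not given, their reads cannot be told apart from those of the genes they overlap.

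The same contrast was available in mice that also received ALY688, 7 with LPS against 10 without, which share no library with the 13 mice above. In that comparison, 26.4% of 12266 tested genes were called higher and 26.6% lower. Of the 2577 genes higher in mice without ALY688, 2248 were also higher there (87.2% of these and 69.5% of those called there) and 2 were lower. Of the 2208 lower genes, 1387 were also lower there (62.8% and 42.4%) and 0 were higher. B cell markers had a median of −2.43 without and −2.34 with ALY688, and secondary granule genes 3.76 and 2.94. Of 22 NK cell and cytotoxic genes, 10 were higher and 0 lower without ALY688 (median 0.92). With it, 5 were higher and 1 lower (median 0.31). Platelet markers, lower in 16 of 23 without ALY688, were lower in 0 of 23 with it (median −0.55), and the erythroid median was −1.53 and 0.33. Differences between these list medians were not tested. Libraries with few detected genes and much globin lay among the controls in one arm, PBS mice 5, 6 and 9, and on both sides in the other: ALY688 mouse 7 (14630 genes, 60.8% globin) and ALY688 with LPS mice 6 (15830, 53.6%) and 8 (14351, 54.3%). With all of these libraries left out, 4777 genes were called the same way in both arms, against 3635 with them. Platelet and erythroid values of the ALY688 arm were not drawn from that setting. The part of these libraries in those values was not tested.

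**Figure D5:**
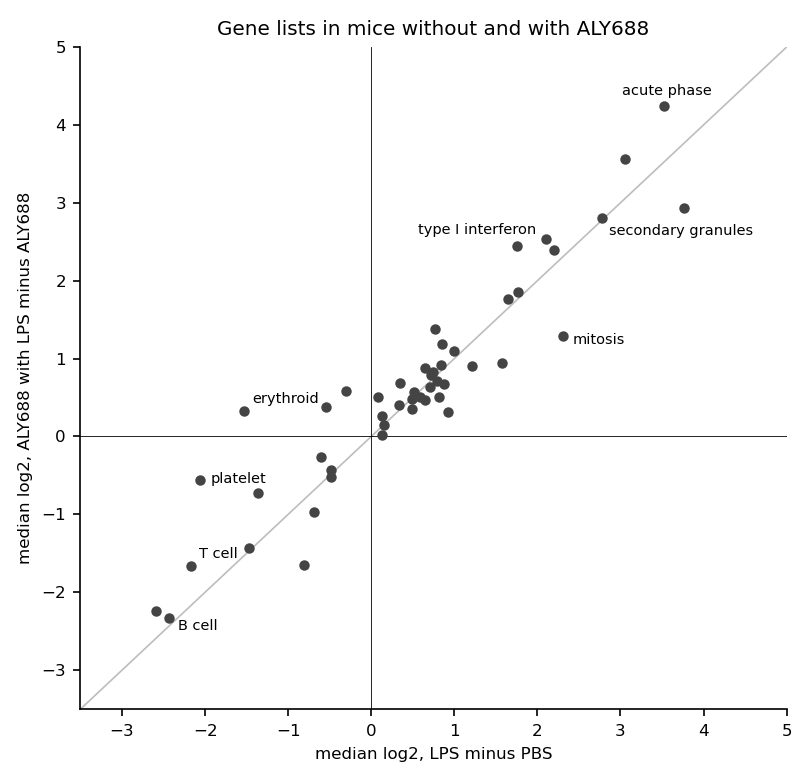
Median log2 fold change of each gene list (8 or more members tested) for LPS minus PBS on the horizontal axis and for ALY688 with LPS minus ALY688 on the vertical axis, with the line of equal values. Lists of both signs follow the line, but not all do. Platelet (−2.06 and −0.55), erythroid (−1.53 and 0.33), autophagy (−0.31 and 0.58) and eicosanoid genes (−0.54 and 0.37) are among those above it. Mitosis (2.30 and 1.29), NK cell (0.92 and 0.31) and basophil and eosinophil genes (−0.81 and −1.65) are among those below it.

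A test of the difference between both contrasts, the interaction of LPS and ALY688, called 0 of 13476 genes in edgeR, with 1217 at an unadjusted p under 0.05, 4 in DESeq2 and 0 in limma-voom. Its 95% interval had a median half-width of 0.70 on the log2 scale, so that smaller differences between the contrasts were not excluded for a typical gene. The smallest adjusted p was 0.244, for Klra8, an NK cell receptor, higher by 1.04 ± 0.22 without ALY688 and at −0.53 with it. Adipor2, a receptor of adiponectin, lay at 49.4, 44.5, 74.4 and 58.0 CPM against 24.2 to 33.9 (median 31.3) (log2 0.91 ± 0.15, adjusted p = 2.24e-04), and Adipor1, which red cell precursors express, did not pass (−1.28 ± 0.57, adjusted p = 0.0861), though without LPS mouse 7 it was lower (−1.75, adjusted p = 0.0416). Genes with near-identical copies are uncertain throughout, since how shared reads were counted is not given. Among them are the Stfa, Bcl2a1, Saa, Oas1, Ifit3, Tgtp, Pira and Pirb, Lilrb4, Klra, Hspa1 and globin genes, and immunoglobulin segments. Ribosomal protein genes, Gapdh and mitochondrially encoded genes may be affected too, which was not tested.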

How the data were processed

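Messenger RNA of blood was sequenced after poly-T bead selection, 1 library per mouse, per the labels' protocols. The values are raw read counts per gene as deposited by the authors, for which the submitters' processing notes name HISAT2 2.0.5 and featureCounts 1.5.0-p3. Neither labels nor notes give the genome build, annotation, strand setting or handling of reads shared by near-identical genes. Gene positions come from GENCODE M21 (GRCm38), in which 54495 of 54532 gene IDs were found, and promoters from RefSeq (GRCm38.p6).

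LPS and PBS libraries were compared with edgeR 4.0.16 (R 4.3.3) on the counts: TMM scaling, filterByExpr, a robust quasi-likelihood fit and test, and glmTreat against 2-fold, with Benjamini-Hochberg adjustment over all genes tested. Errors after ± are standard errors for log2 values and SD elsewhere. Levels are CPM, which do not allow comparison between genes. Globin shares were compared by an exact permutation test. The code was tested on simulated data. DESeq2 1.42.0, limma-voom (limma 3.58.1), other scalings and filters, left-out libraries and a replicate block were tried. Per-mouse log2 values used a pseudocount of 0.5 CPM.

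Comparison, 54 gene lists and 15 single genes were chosen with earlier results of these data known. The naming rule took the 3 tested members of each list with the smallest p, the 10 largest called changes in each direction with a mean of at least 5 CPM in the higher group, the 8 highest genes absent with PBS (predicted genes and pseudogenes left out of both) and the 5 interaction genes with the smallest p, not all of which are printed: some are not reported here. Other members are examples chosen after their values were seen. Mice of different groups that share a number were taken as different animals, which the sample titles do not state. The deviations of same-numbered LPS and PBS mice correlated at 0.14, −0.30, 0.15 and −0.17. So few correlations cannot decide whether the numbers pair the mice, and no conclusion was drawn from them. The labels do not say how the mice were housed or sampled, so p-values measure the spread between these libraries. Libraries differed beyond counting noise (chi-square per degree of freedom at least 8.7).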

Additional observations from a re-analysis of the deposited data

Results flagged for a closer look

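Of 358 sets of one gene in one group of mice, 25 held a highest or lowest mouse that stood apart from its nearest neighbour by more of the group's range than Dixon's 95% limit, where chance gives about 1 in 20, or 17.9. Values here are the gap as a share of the range, and the limit is 0.829 for the 4 LPS mice and 0.493 for the 9 PBS mice.

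Among LPS mice, mouse 2 was apart for Prtn3 on the high side (0.958; 63.5 CPM against 3.53 in the next mouse) and for Il5ra on the low side (0.979; 0.452 against 0.729). Mouse 7 was apart for Tpm2 on the high side (0.862; 3.48 against 1.13 CPM) and for mt-Nd6 (0.968) and Kdm5d (0.908) on the low side.

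Among PBS mice, mouse 9 was high for Tlr4 (0.515), Trem3 (0.540) and Col3a1 (0.547) and low for S1pr1 (0.502; 15.4 against 39.4 CPM), Lta4h (0.578) and Psmc2 (0.499). Mouse 7 was high for Cd14 (0.533; 10.9 against 5.79 CPM), Adgre1 (0.496), Plaur (0.659) and Pmaip1 (0.541). Mouse 4 was high for Ccl2 (0.693), Cd209a (0.688; 9.91 against 4.08 CPM) and Ncr1 (0.511). Mouse 6 was low for Tnip1 (0.512) and high for C1qc (0.570) and Ighg2c (0.555). Mouse 3 was high for Gsdmd (0.534), Tspoap1 (0.508) and Nos2 (1.00, the one PBS mouse with a count), and mouse 5 for Gimap5 (0.525).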

How the results depend on the processing

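No call changed direction under any setting run. Library totals in place of TMM moved the counts most, to 5600 genes higher, 296 lower, 2038 past 2-fold and 2007 genes called the same way in both arms (3635 with TMM). With at least 5 CPM in 4 libraries, 810 genes were past 2-fold. The interaction called 4 genes in DESeq2 and 1 without ALY688+LPS mouse 1 (0 to 1 over left-out libraries). Leaving out 1 library gave 2176 to 2671 genes higher, 1488 to 2291 lower, 971 to 1296 past 2-fold and 3049 to 3973 in both arms, and a globin difference of −30.4 to −22.0 percentage points. The replicate block gave 1976 genes higher and 1555 lower. It matched mice by number, although these were taken as different animals. PBS mice whose number no LPS mouse carries do not inform its contrast, so it rests on fewer controls. The block lowered the lower calls of ribosomal proteins from 11 to 4, of erythroid genes from 5 to 0 and of mitochondrially encoded transcripts from 10 to 6. Relative to all genes, the median of circadian clock genes turned to 0.0823 with no low-count filter, 0.243 with at least 5 CPM in 4 libraries and 0.148 under the replicate block; the cause was not tested. Without PBS mice 5, 6 and 9, 2735 genes were higher and 2561 lower, while the lower calls of platelet markers went from 16 to 10 and of erythroid genes from 5 to 1. Depth limits low genes: the lowest of 10 bins by level had a median 95% half-width of 1.09. Treatment and experiment cannot be told apart.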
